A study of Mus musculus with 18 samples.

Results

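The 10 genes of glycolysis described here were followed through nuclear and whole cell RNA of mouse Neuro2A cells. They were chosen by name, as every locus whose symbols include Gpi1, Pfkl, Pfkp, Aldoa, Tpi1, Gapdh, Pgk1, Eno1, Pkm or Ldha. Each of the 10 names matched 1 locus, out of 52179 loci with a symbol and 168136 loci in all. All 10 lay above a mean normalized count of 10 over the 18 samples and were among the 15579 loci tested. A normalized count is the number of reads on a locus divided by a factor for the sample, which makes the level of 1 gene comparable between samples.

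Glycolysis splits glucose into pyruvate in the cytosol and yields ATP and NADH, and lactate dehydrogenase then turns pyruvate into lactate and returns NAD+. Most tumour lines, neuroblastoma among them, carry out much of it even with oxygen. Its enzymes are made on cytosolic ribosomes from abundant mRNAs. Neurons and neuroblastoma cells use particular isoenzymes of the pathway, and the same step can be coded by genes of very different size.

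The Neuro2A line was derived from a mouse neuroblastoma and is labelled WT in all groups. Cells received a biotinylated miR-92b mimic or a biotinylated scrambled mimic (Scr), each transfected at 25 nM, or were left untransfected (control). Nuclear or whole cell lysates were made 48 h after transfection, and RNA held on streptavidin beads was collected from them. This gave 6 groups of 3 samples, and RNA was selected with oligo-dT beads before sequencing, so RNA without a poly(A) tail is under-sampled. The mimics are transfected in excess of the cell's own miRNA, and all samples come from 1 cell line. The labels do not say whether the 3 samples of a group were separate cultures, so that p-values cover only the spread between these samples.

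Reads on loci with a symbol ranged from 3752991 to 22920037 per sample, and the 10 glycolytic loci took 0.559% to 1.26% of them. Of 14 sympathetic neuroblastoma markers, 12 were tested, among them Hand2 at a mean count of 1078. None of the fibroblast, leukocyte or epithelial markers passed the filter, and their summed counts stayed at or below 90.5, 50.6 and 11.8 in every group. Of 4 astrocyte markers, Gfap passed at a mean of 41.5. The library that stood apart was the whole cell miR-92b replicate 3. Its summed count of cytosolic ribosomal protein loci was 394023, against 102804 to 224291 in the other whole cell libraries. Its summed count of mitochondrially encoded loci was 481156, against 123023 to 251704, and that of 6 nuclear-retained RNAs was 32813, against 55820 to 85265. For the 10 genes, values that move with this library are also given without it, while the gene lists and correlations below are given with it.

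Nuclear and whole cell lysates were compared first, over the 3 treatments together, to see how far the mRNAs of a cytosolic pathway are present in nuclear samples. Of the 10 genes, 7 were lower in nuclear samples, 1 was higher and the other two did not pass the test. Gapdh and Pgk1 were lowest in nuclear samples relative to whole cell samples, by 5.11-fold and 4.74-fold, followed by Ldha (3.78-fold), Aldoa (3.57-fold), Tpi1 (3.19-fold), Eno1 (2.22-fold) and Pfkl (1.44-fold). Pfkp was 1.77-fold higher in nuclear samples. Gpi1 and Pkm differed by less than the spread between samples. These levels are relative to the other RNAs of each library, so fewer molecules of a gene per cell and more of the other RNAs cannot be told apart. The number of cells behind a library does not show in them.

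Of all tested loci, 15.8% were called lower and 15.3% higher in nuclear samples at an adjusted p below 0.05 (limma with Benjamini-Hochberg adjustment over the 15579 loci). The median log2 fold change of the 10 genes was -1.41, and that of all tested loci was 0.14. For 6 of the 10 genes (Pfkl, Aldoa, Tpi1, Gapdh, Pgk1 and Ldha) every one of the 9 nuclear samples lay below every one of the 9 whole cell samples, an order found in 4.4% of all tested loci. For Pfkp every nuclear sample lay above every whole cell sample, which held for 2.91% of all tested loci. These 8 calls held under each of the 27 alternatives tried, the left-out libraries included.

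**Figure D1:**
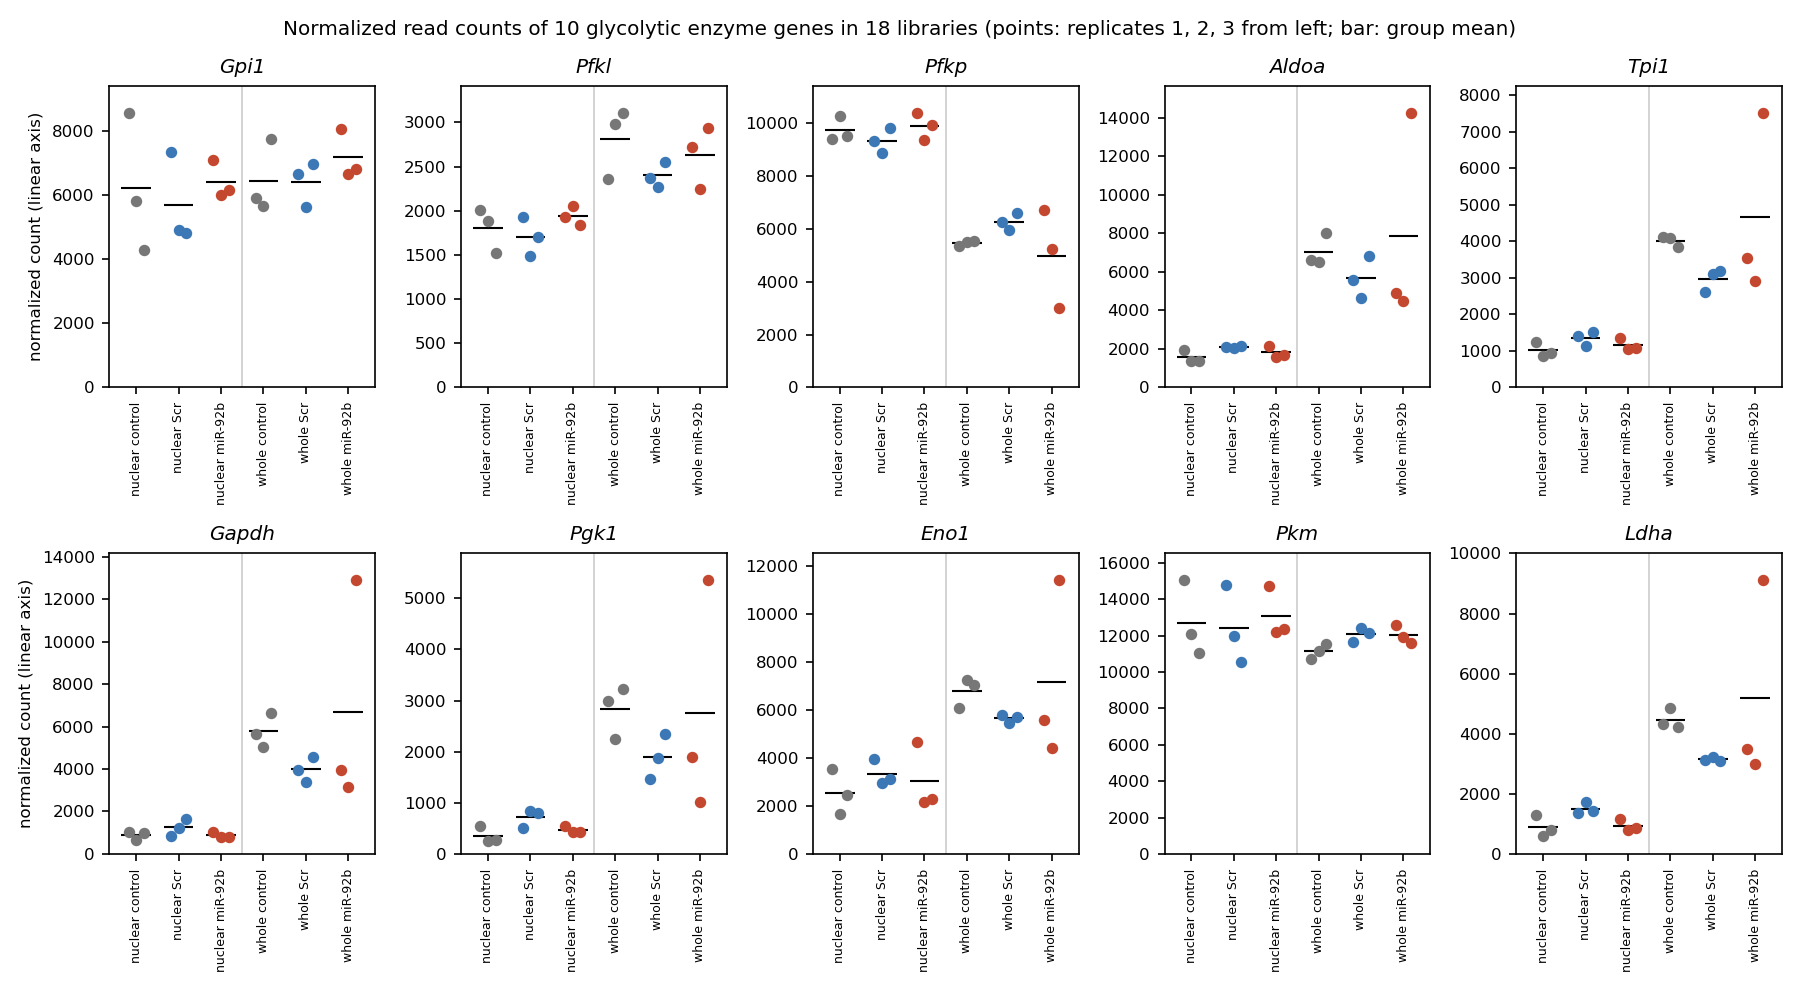
Normalized read counts (linear vertical axes that start at 0) of the 10 genes in each of the 18 libraries, with 3 points per group for replicates 1, 2 and 3 from left to right and a bar at the group mean. For 6 genes the plot has all nuclear samples below all whole cell samples, Pfkp has the reverse order, and whole cell miR-92b replicate 3 is the highest sample for Aldoa, Tpi1, Gapdh, Pgk1, Eno1 and Ldha.

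At the upper steps the genes went different ways. Gpi1 (chr7:34201330-34230336, minus strand) codes for glucose-6-phosphate isomerase, which turns glucose 6-phosphate into fructose 6-phosphate. Its locus also carries the non-coding gene Gm12762 just upstream on the same strand. Its normalized count ranged from 4276 to 8549 with a median of 5996 in nuclear samples and from 5625 to 8064 with a median of 6656 in whole cell samples. The ranges overlapped for most of their length, and the log2 fold change was -0.15 (SE 0.13, adjusted p = 0.386, limma).

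Phosphofructokinase, the committed and most regulated step, is coded by 3 genes named after liver, platelet and muscle, and Neuro2A cells held reads of all of them. Pfkp, the platelet form (chr13:6579768-6648777, minus strand), had 9385, 10280 and 9534 normalized counts in nuclear control samples, 9327, 8865 and 9802 in nuclear Scr samples and 10371, 9377 and 9945 in nuclear miR-92b samples. In whole cell lysates it had 5354, 5512 and 5549 in control samples, 6264, 5954 and 6619 in Scr samples and 6733, 5238 and 2997 in miR-92b samples. The nuclear values spanned a narrow range with a coefficient of variation of 5.05%, and the lowest of them, 8865, lay well above the highest whole cell value of 6733. The log2 fold change was 0.82 (SE 0.12, adjusted p = 1.32e-05, limma). The lowest whole cell value is that of miR-92b replicate 3, and without it the log2 fold change was 0.71. The counted Pfkp locus, chr13:6548157-6648777, reaches past the 3′ end of the gene, and reads from outside the gene were not separated.

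Pfkl, the liver form (chr10:77986947-78010083, minus strand), moved the other way. It ranged from 1487 to 2050 in nuclear samples and from 2242 to 3101 in whole cell samples, with a gap between the groups that is small beside the spread within them. Its log2 fold change was -0.52 (SE 0.10, adjusted p = 0.000244, limma). The muscle form Pfkm, at a mean count of 334.9, was also lower in nuclear samples, with a log2 fold change of -0.66 (SE 0.19, adjusted p = 0.00889, limma). Of the 3 phosphofructokinase genes, Pfkp was thus higher and the other two were lower in nuclear samples.

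In the middle of the pathway the picture was uniform. Aldoa codes for aldolase A, which splits fructose 1,6-bisphosphate into a pair of triose phosphates (chr7:126795234-126800751, minus strand). Its nuclear values were 1941, 1385 and 1367 in control, 2118, 2066 and 2175 in Scr and 2165, 1593 and 1699 in miR-92b samples. Its whole cell values were 6598, 6513 and 8019 in control, 5601, 4648 and 6847 in Scr and 4911, 4511 and 14224 in miR-92b samples. No nuclear sample came near the lowest whole cell sample, and the last value is the only one above 8019. Its log2 fold change was -1.84 (SE 0.16, adjusted p = 9.52e-09, limma) and -1.66 without that library.

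Tpi1 codes for triosephosphate isomerase, which interconverts the triose phosphates (chr6:124810586-124814296, minus strand). Its locus is joined with Usp5, a protein-coding gene of the same strand whose 3′ end lies less than 1 kb away, so that its count holds reads of both genes. The count ranged from 854 to 1507 in nuclear and from 2601 to 7505 in whole cell samples, and the log2 fold change was -1.67 (SE 0.14, adjusted p = 3.48e-09, limma) and -1.54 without whole cell miR-92b replicate 3.

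Gapdh codes for glyceraldehyde-3-phosphate dehydrogenase, the step that makes NADH, and is widely used as a reference gene (chr6:125161715-125166467, minus strand). It had 1037, 653 and 998 normalized counts in nuclear control samples, 859, 1234 and 1644 in nuclear Scr samples and 1050, 808 and 779 in nuclear miR-92b samples. Whole cell values were 5667, 5047 and 6628 in control, 3972, 3398 and 4576 in Scr and 3953, 3134 and 12918 in miR-92b samples. The highest nuclear value, in Scr replicate 3, was still below the lowest whole cell value. For Gapdh the log2 fold change was -2.35 (SE 0.20, adjusted p = 2.98e-09, limma) and -2.15 without whole cell miR-92b replicate 3. Over the 3 treatments together, Gapdh had the lowest log2 fold change of the 10 genes in either case. In control samples alone Pgk1 was lower, with -3.08 against -2.71 for Gapdh. In Scr and in miR-92b samples Gapdh was the lower, with -1.71 against -1.41 and -2.64 against -2.25.

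Pgk1 codes for phosphoglycerate kinase, the step that makes the first ATP (chrX:106187100-106203699, plus strand). It had the lowest nuclear counts of the 10 genes, from 246 to 833 with a median of 516.5, against 1024 to 5359 with a median of 2247 in whole cell samples. Its nuclear values also varied most, with a coefficient of variation of 40.2%. The log2 fold change was -2.25 (SE 0.22, adjusted p = 5.08e-08, limma) and -2.03 without whole cell miR-92b replicate 3.

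The lower steps were mixed. Eno1 codes for enolase, which makes phosphoenolpyruvate (chr4:150236721-150248879, plus strand), and ranged from 1666 to 4658 in nuclear and from 4428 to 11410 in whole cell samples. Only nuclear miR-92b replicate 1, at 4658, reached into the whole cell range, whose lowest sample was whole cell miR-92b replicate 2. For Eno1 the log2 fold change was -1.15 (SE 0.17, adjusted p = 2.08e-05, limma) and -1.02 without whole cell miR-92b replicate 3.

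Pkm codes for muscle pyruvate kinase, whose splice forms M1 and M2 differ in 1 exon and are not separated by these gene counts (chr9:59656368-59679375, plus strand). Its locus is joined with RP23-320D23.6, which is not in GENCODE M21. It had 15067, 12066 and 11038 counts in nuclear control samples, 14790, 11983 and 10552 in nuclear Scr samples and 14746, 12206 and 12340 in nuclear miR-92b samples. In whole cell lysates it had 10735, 11140 and 11546 in control, 11650, 12416 and 12156 in Scr and 12590, 11926 and 11610 in miR-92b samples. The compartments overlapped, with nuclear samples on either side of the whole cell ones, and replicate 1 was the highest of each nuclear group. The log2 fold change was 0.11 (SE 0.11, adjusted p = 0.453, limma), and with FPKM values it was -0.13, so no direction is given for Pkm.

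Ldha codes for lactate dehydrogenase A (chr7:46841475-46855627, plus strand). It had 1290, 610 and 802 counts in nuclear control samples, 1354, 1723 and 1424 in nuclear Scr samples and 1154, 782 and 871 in nuclear miR-92b samples. In whole cell lysates it had 4336, 4853 and 4230 in control, 3114, 3241 and 3080 in Scr and 3490, 3004 and 9119 in miR-92b samples. The compartments did not overlap, and the log2 fold change was -1.92 (SE 0.17, adjusted p = 7.58e-09, limma) and -1.75 without whole cell miR-92b replicate 3.

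**Figure D2:**
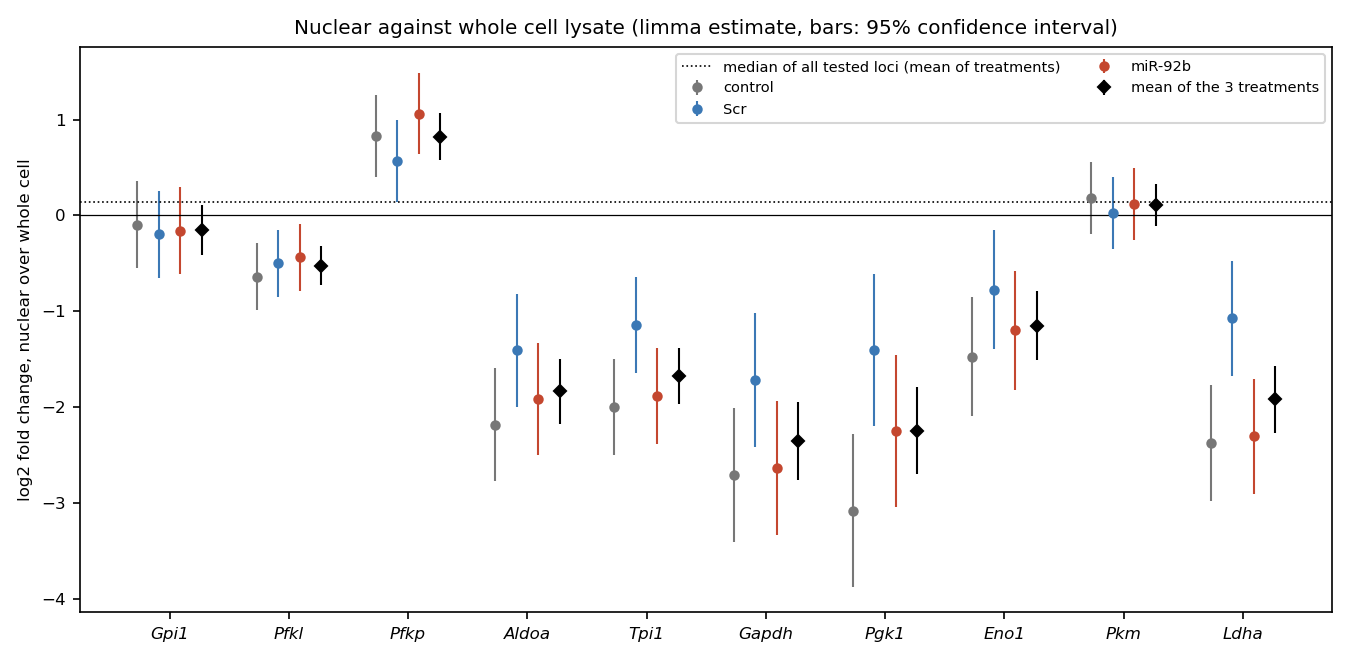
Log2 fold change of nuclear over whole cell samples (vertical axis) for each of the 10 genes, in control, Scr and miR-92b samples and over their mean (diamonds), as limma estimates with 95% confidence intervals. Pfkp lies above 0, Gpi1 and Pkm near 0 and the other genes below 0, and the dotted line at 0.14 is the median of all tested loci.

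The compartments were also compared within each treatment. In control samples 7 genes were called lower and Pfkp higher, beside 6.91% and 2.94% of all tested loci. In miR-92b samples 6 genes were called lower and Pfkp higher, beside 6.63% and 6.66% of all tested loci. In Scr samples 5 genes were called lower (Aldoa, Tpi1, Gapdh, Pgk1 and Ldha) and none higher, beside 3.7% and 1.46% of all tested loci, and Pfkp had a log2 fold change of 0.57 (adjusted p = 0.104, limma). Pgk1 had log2 fold changes of -3.08 in control, -1.41 in Scr and -2.25 in miR-92b samples, and Ldha of -2.38, -1.07 and -2.31. Without whole cell miR-92b replicate 3 the miR-92b values were -1.60 for Pgk1 and -1.81 for Ldha. Whether Scr differed from control in this respect was not tested. The counts depended on the samples in the fit, since fitting only the groups compared gave 7 calls in Scr samples (Pfkp and Eno1 added) and 4 in miR-92b samples (Pfkp, Pgk1 and Eno1 lost). The Scr count fell to 3 when any of the 6 Scr libraries was left out, as Pgk1 and Ldha then had adjusted p-values of 0.0551 to 0.122 (limma). The control count was 7 without nuclear replicate 2, where Pfkp was lost, and without whole cell replicate 2, nuclear replicate 3 or whole cell replicate 3, where Pfkl was lost. The miR-92b count was 6 without nuclear replicate 2 or 3 or whole cell replicate 3, where Eno1 was lost with adjusted p-values of 0.0595 to 0.0688 (limma), and 8 without whole cell replicate 2, where Pfkl was added with an adjusted p of 0.0385 (limma).

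Nuclear Scr replicates 2 and 3 held more mitochondrially encoded RNA than the other nuclear samples, with summed counts of 2939, 14097 and 28666 in replicates 1, 2 and 3 against 1508 to 6457 in the other nuclear libraries. Gapdh, Pgk1 and Ldha were also higher in Scr replicates 2 and 3 than in every other nuclear sample. The part of this in the Scr comparison was not tested.

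Because the genes moved unequally, the make-up of the glycolytic RNA pool differed between compartments. The summed normalized count of the 10 genes had a median of 37457 in nuclear and 54022 in whole cell samples. Pkm took a median of 33.2% of that sum in nuclear and 22.5% in whole cell samples, and Pfkp 25.7% and 11.6%. Gapdh took 2.32% in nuclear and 8.47% in whole cell samples, Ldha 2.56% and 6.75%, and Aldoa 4.54% and 11.8%. No gene held as large a share in whole cell libraries as Pkm did in nuclear ones. These are shares of reads, which favour long RNAs.

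**Figure D3:**
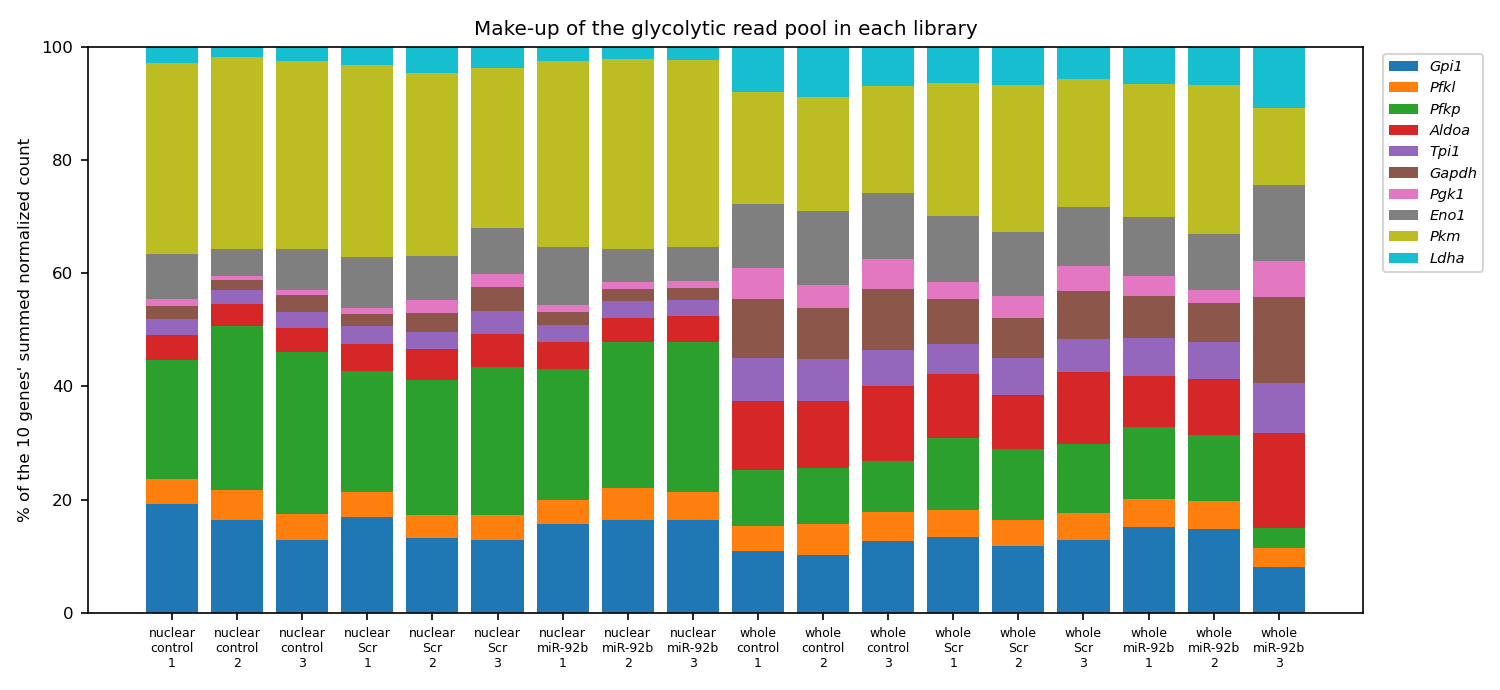
Share of each of the 10 genes in their summed normalized count (vertical axis, percent) in each of the 18 libraries. Pkm and Pfkp fill more of the nuclear bars and Aldoa, Gapdh and Ldha more of the whole cell bars, and whole cell miR-92b replicate 3 has the lowest Pfkp share, 3.53%.

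Levels of different genes can be set side by side only per transcript length, as FPKM. In whole cell samples the medians ran from Aldoa (553 FPKM) and Gapdh (455 FPKM) through Pkm (355 FPKM), Eno1 (304 FPKM), Tpi1 (265.3 FPKM), Ldha (264.5 FPKM), Gpi1 (231 FPKM) and Pgk1 (152 FPKM) to Pfkp (105 FPKM) and Pfkl (80.9 FPKM). Every neighbour in that order overlapped in range with the next. In nuclear samples Pkm came first (301 FPKM, from 267 to 560), apart from all others, with Gpi1 (178 FPKM) and Pfkp (175 FPKM) next. Aldoa (145 FPKM), Eno1 (113 FPKM), Gapdh (97.1 FPKM), Ldha (91.0 FPKM), Tpi1 (56.0 FPKM), Pfkl (49.9 FPKM) and Pgk1 (37.0 FPKM) followed, each overlapping with its neighbour. Aldoa and Gapdh thus led the whole cell order and stood in the middle of the nuclear one.

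The genes also differ in size, which the choice by name did not use. Gapdh, Tpi1 and Aldoa span 4.75, 3.71 and 5.52 kb of the genome (GENCODE release M21, GRCm38), Eno1, Ldha and Pgk1 12.2, 14.2 and 16.6 kb, and Pkm, Pfkl, Gpi1 and Pfkp 23.0, 23.1, 29.0 and 69.0 kb. The 6 genes below 20 kb had log2 fold changes of -2.35 to -1.15 in nuclear over whole cell samples, and the other four, above 20 kb, of -0.52 to 0.82. Pearson's r between the log2 span and the log2 fold change was 0.81 across the 10 genes, and 0.89 with the length of the longest coding transcript in place of the span. Span, exon number and transcript length go together in these genes, and genes are not independent replicates. Over 9045 tested loci of 1 protein-coding gene r was 0.21, with a median log2 fold change of -0.46 for genes under 5 kb and 0.041 for genes of at least 50 kb. The direction of the relation with span was thus the same over these loci, while transcript length was compared for the 10 genes only. Joined loci are left out of the 9045, while the joined loci of Tpi1, Gpi1 and Pkm are among the 10 genes.

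**Figure D4:**
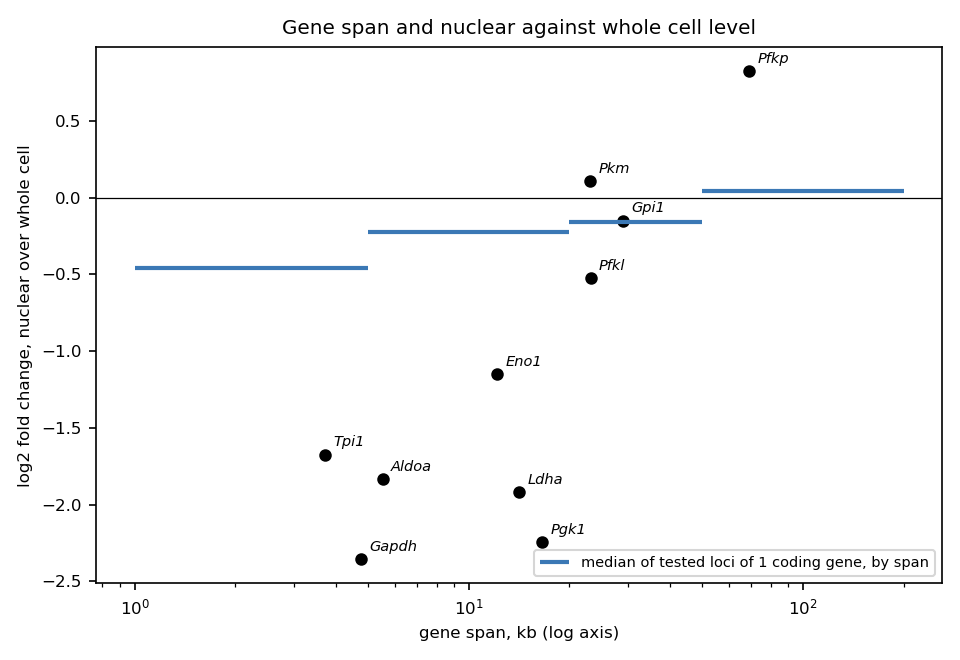
Log2 fold change of nuclear over whole cell samples (vertical axis) against gene span in kb (log axis) for the 10 genes, with the median of 9045 tested loci of 1 protein-coding gene in 4 bins of span (lines, the outer bins being open). The short genes Gapdh, Tpi1 and Aldoa lie far below 0 and far below the line of their bin, and Pfkp lies above the line of its bin.

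A second measure of RNA size came from the ratio of count to FPKM, which gives the transcript length the authors' estimate assigned to a locus, scaled here on 370 loci with 1 annotated transcript. The median of this implied length in nuclear and whole cell samples was 1424 and 1464 nt for Aldoa and 1561 and 1585 nt for Ldha. It was 1145 and 1306 nt for Gapdh and 1630 and 1891 nt for Pgk1. The longest annotated coding transcripts of Aldoa, Ldha, Gapdh and Pgk1 have 1549, 1815, 1420 and 1825 nt. The highest nuclear value of Gapdh, 1374 nt, lay below its transcript length. For Pfkp it was 6376 and 6616 nt, and for Pkm 4837 and 4369 nt, above the longest annotated coding transcripts of 4145 and 2432 nt. Medians also lay above the longest coding transcript for Gpi1, with 3682 and 3654 nt against 2884 nt. The same held for Pfkl, with 4143 and 3838 nt against 3730 nt, and for Tpi1, with 1994 and 1783 nt against 1607 nt. For Eno1 the median was 3117 nt in nuclear and 2458 nt in whole cell samples, and the longest annotated coding transcript has 2027 nt. The ranges of the compartments overlapped for all 10 genes, and which RNAs lie behind the longer values was not tested. Like that of Pfkp, some counted loci reach beyond the gene positions given above. These are Pfkl (chr10:77978524-78010083), Aldoa (chr7:126793054-126830219), Gapdh (chr6:125145241-125166467) and Eno1 (chr4:150236721-150253450), beside the joined loci of Gpi1 and Tpi1.

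Other genes of glucose use were counted in the same comparison, where 15.8% of all tested loci were lower and 15.3% higher. These lists were written with earlier results of these data known. Of 12 tested loci of other glycolytic isoenzymes and steps, 5 were lower, 1 was higher and 6 did not pass the test, with a median log2 fold change of -0.46. Pgam1, phosphoglycerate mutase, had the same pattern as the middle steps with a log2 fold change of -2.02 (SE 0.17, adjusted p = 5.37e-09, limma). The hexokinase Hk1 was lower by a smaller amount, with a log2 fold change of -0.67 (SE 0.12, adjusted p = 0.000200, limma), and Hk2 had -0.26 (SE 0.12, adjusted p = 0.0962, limma). Aldoc, the brain form of aldolase, had a mean count of 43.6 and a log2 fold change of -2.98 (SE 0.77, adjusted p = 0.00498, limma). Eno2, neuronal enolase, shares a locus with 5 other symbols and had -0.21 (adjusted p = 0.208, limma). Adpgk, an ADP-dependent glucokinase, was higher with 0.45 (SE 0.14, adjusted p = 0.0150, limma). Ldhb, the heart form of lactate dehydrogenase, was listed at 0 in all groups.

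Of 10 tested loci of glucose and lactate transport and regulators of glycolysis, 5 were lower and none higher, with a median log2 fold change of -0.46, and with FPKM values 3 were lower. Slc16a3, a lactate exporter, had -0.49 (SE 0.14), Slc2a3, a neuronal glucose transporter, -0.44 (SE 0.12), and Pdk1, which holds back pyruvate dehydrogenase, -0.48 (SE 0.16). Of 7 pentose phosphate loci 3 were lower and 4 did not pass the test, with a median of -0.32. The lower ones were Tkt with -1.82 (SE 0.22), G6pdx with -1.88 (SE 0.45) and Taldo1 with -2.24 (SE 0.38). Of 21 loci of pyruvate oxidation and the tricarboxylic acid cycle 13 were lower, with a median of -0.71. The called loci of the last list with the highest means were Cs, citrate synthase, with a log2 fold change of -1.37, Sdhb, a subunit of succinate dehydrogenase, with -1.10, and Pdha1, a subunit of pyruvate dehydrogenase, with -1.41. Of 13 other targets of hypoxia-inducible factor 3 were lower and 2 higher, shares near those of all tested loci, with Vegfa at 0.42 (SE 0.13) and P4ha1 at 0.41 (SE 0.12) above 0 and Ddit4, joined with Anapc16, at -1.22 (SE 0.11), Egln1 at -1.04 and Bnip3 at -1.26 below 0.

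Reference RNAs of known location framed these values. Of 5 tested nuclear-retained RNAs 3 were higher in nuclear samples, Malat1 with a log2 fold change of 1.08 (SE 0.16), Neat1 with 1.06 (SE 0.14) and Kcnq1ot1 with 0.98 (SE 0.14), and Pfkp, at 0.82, lay below them. Of 83 tested cytosolic ribosomal protein loci 79 were lower and none higher, among them Rplp0 with -3.67, Rps2 with -2.83 and Rpl4 with -2.51, and the median of -2.34 was close to the values of Gapdh and Pgk1. The 4 tested mitochondrially encoded loci were lower still, with a median of -4.82, and all 10 genes lay above that. Of the 12 tested sympathetic markers 2 were higher and 2 lower, with a median of 0.065, again near the 15.3% and 15.8% of all tested loci. No locus of these lists was called between miR-92b and Scr samples.

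The 5 other tested loci whose profile was most like the mean of the 10 genes over the 18 samples were Bsg, Pgam1, Vat1, Mif and Fth1. Pearson's r of log2(normalized count + 1) with that mean was 0.991 for Bsg, which codes for basigin, the partner of the lactate transporters. It was 0.987 for Pgam1 and 0.984, 0.977 and 0.975 for Vat1, Mif and Fth1. Much of this is the difference between compartments, which all of these share, with log2 fold changes of -3.15 to -1.63. Within the 9 nuclear samples r was 0.905 for Bsg and 0.695 to 0.922 for all 5, and within the 9 whole cell samples 0.974 for Bsg and 0.903 to 0.974 for all 5, the latter with whole cell miR-92b replicate 3 among the points. Likeness to the mean is not likeness to each gene, since 30 of the 45 pairs among the 10 genes had r above 0 over the 18 samples. Pairs with Pfkp ranged from -0.94 with Tpi1 to 0.38 with Pkm.

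The pulldown was made to find RNAs held by miR-92b, so the 10 genes were next compared between miR-92b and Scr samples. The sequence of the mouse miRNA, from RefSeq (chr3:89227126-89227147, minus strand, GRCm38.p6), is shown with its seed, bases 2 to 8, in capitals, since pairing of the seed with a 3′ UTR is the usual way a miRNA finds an mRNA. The sequence of the mimic itself is not given in the sources used here.
mmu-miR-92b-3p: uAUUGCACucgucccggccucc

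Matches were searched on the sense strand of the 3′ UTRs of coding transcripts, as GTGCAAT, which pairs with bases 2 to 8, or TGCAATA, which pairs with bases 2 to 7 followed by A, and which overlaps the former by 6 bases. Of the 10 genes, 2 held a match, Ldha and Pkm, both of the TGCAATA kind, and none held a match in its coding sequence. Of 11520 protein-coding genes among the tested loci, 14.7% held such a match, with a median 3′ UTR of 1192 nt against 513.5 nt for the 10 genes. The sites are shown because no other 3′ UTR of the 10 genes holds those letters, and the capitals mark the match. The printed Ldha stretch lies in the 3′ UTR at chr7:46855530-46855558, with the match starting at base 400 of 486, and the printed Pkm stretch at chr9:59678971-59678999, with the match starting at base 148 of 541, both on the plus strand of GRCm38. A match is a run of letters and was not tested for binding.
Ldha: gtagtgtgcatTGCAATAttatgtgagat
Pkm: cctctaaaacaTGCAATAgagaccagcta

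None of the 10 genes was called in nuclear samples, and none in whole cell samples. For nuclear miR-92b against Scr 0% of all tested loci were called, and for whole cell samples 0.00642%. Each of the 10 genes had a nuclear adjusted p of 1 when rounded to 2 decimals (limma), and 1 gene, Ldha, had an unadjusted p under 0.05. In whole cell samples adjusted p-values were 0.496 to 0.999 (limma), and 1 gene, Tpi1, had an unadjusted p under 0.05. edgeR and DESeq2 called none of them either.

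Ldha, which holds a match, had 1154, 782 and 871 counts in nuclear miR-92b and 1354, 1723 and 1424 in nuclear Scr samples. It was the only gene of the 10 whose nuclear groups did not overlap, an order found in either direction in 10.1% of all tested loci. Nuclear Scr replicates 2 and 3 also held the most mitochondrially encoded RNA of the nuclear libraries, with summed counts of 14097 and 28666 as given above, and the part of this in the Ldha values was not tested. The log2 fold change was -0.69 (95% confidence interval -1.30 to -0.088), with an unadjusted p of 0.0266 and an adjusted p that rounds to 1 (limma). In whole cell samples Ldha had 0.54 (-0.065 to 1.14), which was 0.042 without miR-92b replicate 3. Pkm, the other gene with a match, had 0.083 (-0.29 to 0.46) in nuclear and -0.0041 (-0.38 to 0.37) in whole cell samples.

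The other genes had nuclear log2 fold changes of -0.61 for Pgk1 to 0.20 for Gpi1, with intervals that all hold 0. Pgk1 had 95% limits of -1.41 and 0.18, Gapdh of -1.17 and 0.23, and Pfkp of -0.34 and 0.51, so that the limits of Pgk1 and Gapdh reach below -1 and those of Pfkp do not. In whole cell samples 8 genes had values above 0, among them Tpi1 with 0.53 (0.026 to 1.03) and Gapdh with 0.46 (-0.24 to 1.16), and Pfkp had -0.41 (-0.83 to 0.019). No gene had whole cell groups that did not overlap, which 8.92% of all tested loci had.

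These whole cell values turned on 1 library. Without miR-92b replicate 3, Aldoa had a log2 fold change of -0.26, Gapdh of -0.17, Pgk1 of -0.42 and Eno1 of -0.18, the reverse of their values with it, and Tpi1 had 0.12 and Pfkp -0.079. That library had the most ribosomal protein and mitochondrial RNA and the least nuclear-retained RNA of all whole cell libraries, as given above, and the part of this in the miR-92b values was not tested.

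**Figure D5:**
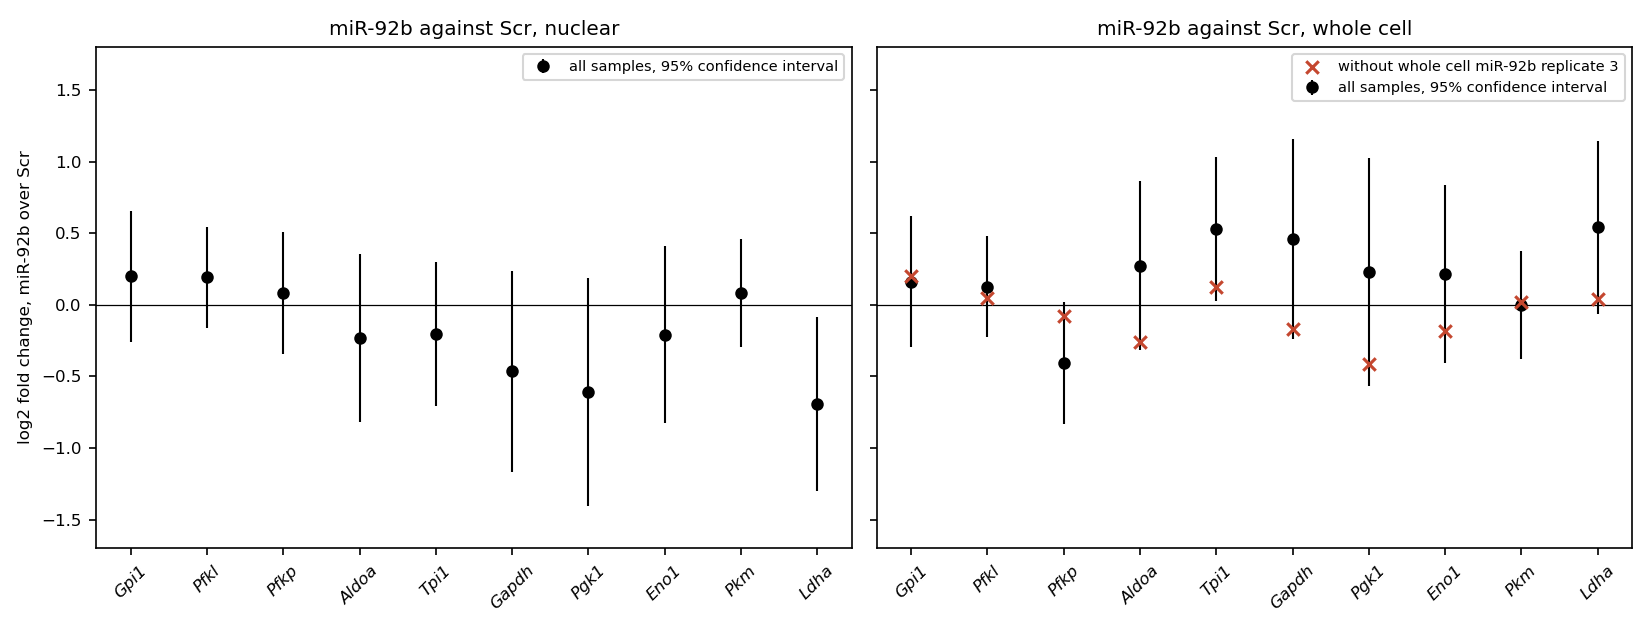
Difference between miR-92b and Scr samples as a log2 fold change (vertical axis) for the 10 genes in nuclear (left) and whole cell samples (right), as limma estimates with 95% confidence intervals. Crosses give the whole cell values without whole cell miR-92b replicate 3, and Aldoa, Gapdh, Pgk1 and Eno1 fall below 0 there.

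The effect of miR-92b over Scr was then compared between compartments, and no gene was called, beside 0.00642% of all tested loci. Ldha had the largest difference of the 10, -1.23 in log2 (nuclear minus whole cell, SE 0.41, unadjusted p = 0.00663, adjusted p = 0.683 in limma), and Tpi1 had -0.73 (SE 0.34, unadjusted p = 0.0433, adjusted p = 0.683 in limma). Without whole cell miR-92b replicate 3 the value for Ldha was -0.73 and that for Tpi1 -0.33.

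Untransfected cells give the background of the beads without a mimic, and reads of all 10 genes were present there. Gapdh had 5780 ± 796 counts (SD, n = 3) in whole cell control samples, 3982 ± 589 in Scr samples and 6668 ± 5428 in miR-92b samples. The last mean rests on replicate 3, at 12918 beside 3953 and 3134, and the other two values lie below every control sample. In nuclear samples it had 896 ± 211, 1246 ± 393 and 879 ± 149. Against control, no gene was called with miR-92b in nuclear samples (0% of all tested loci, and no gene of the 10 with an unadjusted p under 0.05) or in whole cell samples (0.00642%, and again no gene). With Scr against control, no gene was called in nuclear samples (0% of all tested loci) or in whole cell samples (0%, with no gene of the 10 at an unadjusted p under 0.05). In the nuclear comparison Pgk1, at 718 ± 175 against 352 ± 167, had a log2 fold change of 1.09 (SE 0.38, unadjusted p = 0.00923, adjusted p = 0.838 in limma) and Ldha, at 1500 ± 196 against 901 ± 350, had 0.80 (SE 0.29, unadjusted p = 0.0119, adjusted p = 0.838 in limma). Groups that did not overlap were found for 6 of the 10 genes between whole cell Scr and control samples, where 13.5% of all tested loci had this. Pfkp and Pkm were the ones with Scr above control, and Tpi1, Gapdh, Eno1 and Ldha those with Scr below control, with adjusted p-values of 0.957 or more (limma). Summed ribosomal protein counts were 118882 to 175733 in whole cell Scr and 165596 to 224291 in whole cell control samples. Mitochondrially encoded sums were 150229 to 221255 and 192686 to 251704, and those of nuclear-retained RNAs 68903 to 85265 and 55820 to 74213. The part of this in the values of the 10 genes was not tested. In nuclear samples Aldoa and Ldha had Scr above control without overlap, beside 8.66% of all tested loci. Between miR-92b and control this held for none of the 10 genes in nuclear samples (7.48% of all tested loci) and for Pkm, higher with miR-92b, in whole cell samples (8.01%). The comparisons of miR-92b with Scr and of Scr with control share the Scr samples, which for Ldha were the highest group in nuclear and the lowest in whole cell samples.

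Near-identical copies can take reads from some of these genes. Eno1b, a gene with a coding sequence very like that of Eno1, had a mean count of 721, with means of 226 in nuclear and 1216 in whole cell samples and a log2 fold change of -2.35 (SE 0.22), and reads could be split between it and Eno1. Pgk1-rs7, Ldha-ps and Ldha-ps2 had mean counts of 2.92, 2.08 and 1.67, and Gapdh-ps14, Gapdh-ps15 and Pgk1-ps3 were listed at 0.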

How the data were processed

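RNA-seq of 18 samples was analysed from gene-level tables. Per the study's methods, poly(A) RNA was selected with oligo-dT beads, strand-specific libraries were run on an Illumina instrument, reads were converted with bcl2fastq 2.17, trimmed with Trimmomatic 0.30 and processed with TopHat2 and Cufflinks on mouse build GRCm38. For TopHat2, Cufflinks and the annotation, a version is not given in the sources used. The authors deposited a signal table of counts divided by 1 factor per sample, and whole reads were recovered for 99.9% of 635205 positive values within 0.02 reads. The authors also deposited FPKM per locus and sample. Tables of the authors' own Cuffdiff comparisons hold fold changes and p-values and were not used. Loci without a symbol (115957) held 4.51% to 15.3% of reads and were left out.

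Log2(normalized count + 1) was fitted with limma 3.58.1 (trend, R 4.3.3) in 1 model of the 6 groups, over loci with a symbol and a mean of at least 10, with two-sided p-values adjusted by Benjamini-Hochberg and called below 0.05. Because the counts were already normalized, limma was the main test, and edgeR 4.0.16 and DESeq2 1.42.0 on the recovered reads were alternatives, beside other pseudocounts, filters and scalings, FPKM values, a replicate block and each sample left out. The fit was tested on simulated data. Plots were drawn with matplotlib 3.10.9.

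The members and lists were chosen with earlier results of these data known. The genes named are the 10 members, up to 3 called loci with the highest mean in each direction of every list, 7 further isoenzymes or steps (Pfkm, Aldoc, Hk1, Hk2, Pgam1, Eno2 and Ldhb), the 5 loci most correlated with the members, and copies of members. Others named among a list were added after their values were seen. Gene positions and UTRs come from GENCODE M21 on GRCm38 and the miRNA sequence from RefSeq.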

Additional observations from a re-analysis of the deposited data

How the results depend on the processing

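The number of the 10 genes called between nuclear and whole cell samples over the 3 treatments was 8 under all 27 alternatives, and no fit restricted to the groups compared exists there because all 6 groups are compared. In Scr samples the count of 5 fell to 3 with no filter on the mean and to 3 with FPKM values, and leaving out each replicate gave 3 as lowest and highest, while it rose to 7 when only the groups compared were fitted (Pfkp and Eno1 added) and to 6 with DESeq2 (Pfkl and Pfkp added, Pgk1 lost). In miR-92b samples the count of 7 fell to 4 when only the groups compared were fitted. In control samples it was 7 or 8. Counts between treatments were 0 under every alternative. Signs turned for values that had not passed the test, of which examples follow. With FPKM values Pkm had -0.13 between compartments, and for miR-92b against Scr Pfkp had -0.071 and Pkm -0.32 in nuclear and 0.098 in whole cell samples. Leaving out each replicate, nuclear Pkm ranged from -0.029 to 0.21, and in whole cell samples Aldoa ranged from -0.26 to 0.57, Gapdh from -0.17 to 0.85, Pgk1 from -0.42 to 0.78, Eno1 from -0.18 to 0.50 and Pkm from -0.037 to 0.022. The transport and regulator list had 3 loci called with FPKM values against 5. The median of all tested loci between compartments was 0.14, and it shifted by over 0.1 with FPKM values, to 0.025, and with a filter at a mean of 50, to 0.018. With the replicate number as a block, 8 genes were called between compartments, and no count of the 10 genes changed. The labels do not say what a number marks, and over all tested loci the correlation of deviations between same-numbered samples had a median of 0.0022 over 45 pairs, with 1 pair above 0.1. In nuclear samples replicate 1 nevertheless had the highest summed count of the 10 genes in each treatment, 43587 to 45047 against 33211 to 37522 in replicates 2 and 3. Nuclear replicate 1 also had the lowest share of reads on loci without a symbol in each treatment, 9.96% to 10.8% against 13.1% to 15.3%. DESeq2 gave no adjusted p for 18 tested loci, none of them among the 10 genes. Reads on the 10 genes ranged from 20992 to 206274 per library, and the effect of depth on the calls was not tested.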
